A study of Saccharomyces cerevisiae with 18 samples.

Results

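The transcripts of 8 yeast genes for alcohol, formaldehyde and formate dehydrogenases were followed on 18 arrays: SFA1, FDH1, ADH1, ADH2, ADH3, ADH4, ADH5 and ADH6. A gene entered when an array probe set carried its symbol alone, and its probe set with the highest mean stood for it, whatever its response. All 8 were measured, out of 5656 genes in all. Cells of Saccharomyces cerevisiae DBY747, a haploid MATa laboratory strain with his3, leu2, ura3 and trp1 mutations, were grown to mid-log phase in the glucose medium YPD. Those in the enediyne family received calicheamicin at 1 nM, esperamicin A1 (esperamicin in the sample labels) at 3 nM or neocarzinostatin at 4 nM for 15 min, or methanol vehicle. The enediynes, natural products that break DNA strands, were given as methanolic stocks, so that 4 groups received methanol. The other family received 210 Gy of γ-radiation or a mock irradiation, which the study also describes as a water vehicle, and no methanol is named for these 2 groups. The doses of the 4 agents gave 20 to 25% lethality, and each group had 3 biological replicates with 1 array each. The amount of methanol is not given in the sources used here. The families are named here for their treatments, and the sources used here do not say whether they shared cultures. Methanol and anything else that the families did not share cannot be told apart.

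Yeast makes ethanol from glucose in a pair of steps: pyruvate decarboxylase forms acetaldehyde, and the cytosolic alcohol dehydrogenase Adh1 reduces it to ethanol. When glucose is gone, the glucose-repressed enzyme Adh2 oxidizes ethanol back to acetaldehyde. Adh3 is the mitochondrial isozyme, Adh4 belongs to another family of dehydrogenases and its gene is known to be controlled by zinc through the activator Zap1, Adh5 is a close relative of Adh1, and Adh6 is an NADPH-dependent enzyme that reduces many aldehydes. Sfa1 oxidizes formaldehyde as its adduct with glutathione, and Fdh1 oxidizes formate to carbon dioxide. Baker's yeast does not grow on methanol as methylotrophic yeasts do, and these enzymes are known in it mainly for the removal of formaldehyde and formate.

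The levels are intensities on a linear scale as the authors deposited them, and all differences are on the log2 scale. Intensities of different probe sets do not compare the abundance of their transcripts. SFA1 (YDL168W), ADH1 (YOL086C), ADH2 (YMR303C), ADH3 (YMR083W), ADH5 (YBR145W) and ADH6 (YMR318C) each had 1 probe set. ADH5 is also an older synonym of SFA1 in the RefSeq gene table (assembly R64), and the probe set used here for ADH5 belongs to YBR145W. ADH4 (YGL256W) had 2 probe sets, and the dimmer one, with a mean intensity of 2.51 against 97.7 for the one used, did not follow it over the arrays (r = -0.20, n = 18). FDH1 (YOR388C) had 3 probe sets, with mean intensities of 6.77, 4.16 and 2.45. The brightest of these was used, and the others correlated with it at r = 0.61 and -0.23 over the 18 arrays. Its name carries the suffix that marks probes shared by several transcripts, and its mean was above that of only 14.6% of the genes. Whether probes of ADH1, ADH2, ADH3 and ADH5, which are related in sequence, bind each other's transcripts was not tested.

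In cells given methanol vehicle, none of the 8 genes passed the test against mock irradiation: 0 of 8 were called, against 8.68% of all genes (491 of 5656, with 175 higher and 316 lower). A call needed at least 1.5-fold in either direction together with a limma p that stayed at or under 0.10 after Benjamini-Hochberg adjustment over all 5656 genes. The differences ranged from -0.21 for FDH1 to 0.35 for ADH6, with a median of -0.01 over the 8 genes and -0.05 over all genes. Adjusted p lay between 0.289 and 0.983, and 0 of the 8 genes had an unadjusted p under 0.05, which 1307 genes had in all. For 4 of the 8, namely SFA1, ADH1, ADH2 and ADH4, the 95% interval of the difference stayed inside 1.5-fold in both directions, and for all 8 it stayed inside 2-fold. The arrays of both groups overlapped for each of the 8 genes, and the share of all genes that did so was not counted. Methanol replicate 1 had the lowest ratio of 5′ to 3′ actin signal of all arrays, and without it 0 of the 8 were called as well.

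The gene for formaldehyde oxidation, SFA1, had intensities of 91.6, 70.1 and 73.3 in methanol-treated cells, against 90.0, 93.4 and 61.8 in mock-irradiated cells. The highest and the lowest of these 6 arrays were both in the mock group. The difference was -0.05 ± 0.22 (SE, n = 3 each), with a 95% interval of -0.52 to 0.42 and an adjusted p of 0.921 in limma. Over all 18 arrays SFA1 ranged from 50.5 to 95.1, and both of these extremes were γ-irradiated samples.

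FDH1, for the next step from formate, had intensities of 5.27, 6.96 and 6.43 in methanol-treated cells and 6.52, 6.91 and 8.07 in mock-irradiated cells. The difference of -0.21 ± 0.20 (SE, n = 3 each) had a 95% interval of -0.64 to 0.22 and an adjusted p of 0.579. The interval reached below 1.5-fold lower but not to 1.5-fold higher. With the mean of the FDH1 probe sets the difference was -0.09 (adjusted p = 0.690 in limma). The highest FDH1 value of all arrays, 11.5, came from neocarzinostatin replicate 1, while the other 17 arrays lay between 5.08 and 8.07. All FDH1 values were near the low end of the array's scale.

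ADH1 catalyses the last step of ethanol formation. Its intensities were 5309.6, 4846 and 4928 in methanol-treated cells and 4491, 4897 and 4568 in mock-irradiated cells, a difference of 0.11 ± 0.12 (SE, n = 3 each; 95% interval -0.14 to 0.37; adjusted p = 0.622). The methanol arrays spanned 4846 to 5309.6 and 1 mock array lay among them. Its SD within groups, pooled over the 6 groups, was 0.085 on the log2 scale, against a median of 0.24 over all genes, and 13 of the 5656 genes had a smaller one. ADH1 was also among the brightest genes, with 99.8% of genes at a lower mean, and whether saturation of its probes narrowed its spread was not tested.

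ADH2, whose enzyme takes ethanol back to acetaldehyde, had intensities of 75.9, 68.1 and 80.2 in methanol-treated cells and 79.8, 74.2 and 77.4 in mock-irradiated cells. The 3 mock values lay inside the range of the methanol values, and the difference was -0.05 ± 0.19 (SE; 95% interval -0.44 to 0.35; adjusted p = 0.907). For the mitochondrial isozyme, ADH3 had 1098, 667 and 759 with methanol, against 760.3, 601 and 763 in mock-irradiated cells. Only methanol replicate 1 stood above the mock samples. The difference was 0.22 ± 0.18 (SE; 95% interval -0.16 to 0.61; adjusted p = 0.493), and it was 0.02 without methanol replicate 1 and 0.37 without methanol replicate 2. In methanol replicate 1 the ratio of 5′ to 3′ actin signal, a sign of RNA quality, was -3.59 on the log2 scale, while the other 17 arrays lay between -2.34 and -0.69. With this actin difference as a covariate, the ADH3 difference was 0.0001. Methanol replicate 1 lies farthest from the others on this covariate, so this fit is not independent of leaving that array out. Over the 4 groups that received methanol, ADH3 was at 820 to 1098 on replicate 1, 650 to 770 on replicate 2 and 668 to 759 on replicate 3. The actin ratios of calicheamicin and neocarzinostatin replicate 1 were -0.74 and -0.83. The part of RNA quality in the ADH3 values was not tested further.

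ADH4 had intensities of 89.4, 107 and 84.1 in methanol-treated cells and 115, 117 and 75.1 in mock-irradiated cells. The 3 methanol values fell between the lowest and the middle mock value, and the difference was -0.11 ± 0.19 (SE; 95% interval -0.51 to 0.29; adjusted p = 0.774). ADH5 had 152, 72.8 and 103 with methanol, against 62.5, 116 and 150.3 in mock-irradiated cells. Both groups covered nearly the same wide range, so that its difference of 0.02 ± 0.40 (SE) had the widest interval of the 8 genes, -0.81 to 0.85 (adjusted p = 0.983).

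ADH6, for the NADPH-dependent reduction of aldehydes, showed the largest difference of the 8 genes, still below the threshold. Its intensities were 382, 518 and 528 in methanol-treated cells, against 422, 321 and 369 in mock-irradiated cells. Methanol replicates 2 and 3 were above all 3 mock samples and replicate 1 was not. The difference was 0.35 ± 0.19 (SE, n = 3 each), a ratio of 1.28 with a 95% interval of 0.965 to 1.69 and an adjusted p of 0.289. It was 0.50 (adjusted p = 0.159) without methanol replicate 1, the array with the lowest actin ratio, and 0.25 (adjusted p = 0.572) without mock replicate 2.

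**Figure D1:**
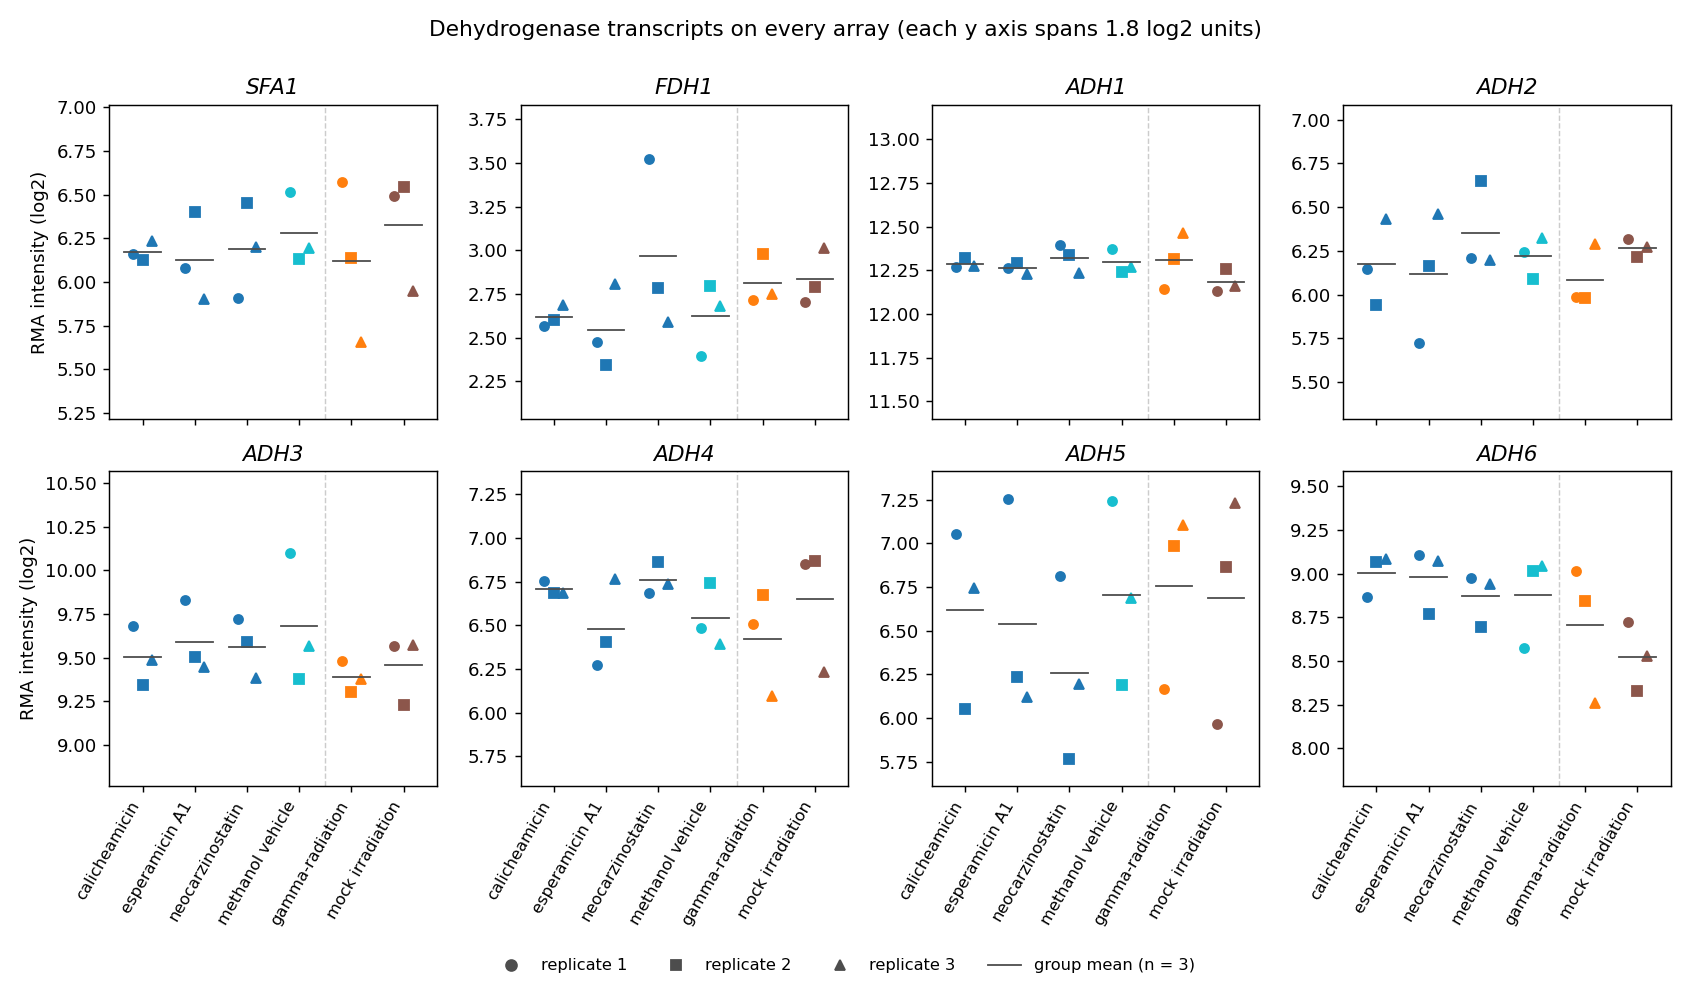
RMA intensity on the log2 scale (y axis) of each of the 8 genes on every array, by group (x axis), with 1 marker shape per replicate number, a line at each group mean and a dashed line between the methanol-carrying groups on the left and the irradiation groups on the right. Each y axis covers the same span. ADH1 stays between 4491 and 5644 in linear intensity, ADH5 is spread widely in every group, and the only FDH1 value that stands apart is 11.5 in a neocarzinostatin sample.

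The 12 arrays of the 4 groups that carried methanol were next compared with the 6 arrays of γ-radiation and mock irradiation, as the mean of the group means on each side. Here too 0 of the 8 genes were called, against 9.99% of all genes (565 of 5656). ADH6 was 0.32 ± 0.12 (SE) higher in the methanol-carrying groups, a ratio of 1.25 with a 95% interval of 1.05 to 1.48. Its adjusted p of 0.0526 in limma was under the threshold of 0.10 and its fold change was under 1.5, so that it was not called. The model took the arrays as independent, while same-numbered arrays of a family varied together in part. A block within each family was not fitted for this comparison. The intervals and adjusted p of this comparison may therefore be too narrow and too low. ADH6 intensities ran from 382 to 552 over the 12 methanol-carrying arrays with a range of group means of 469.8 to 515, against 307 to 518 over the 6 irradiation arrays with group means of 428 and 371. The arrays of both sides overlapped. Over the alternatives, the ADH6 difference lay between 0.21 and 0.42, with an adjusted p from 0.00818 to 0.492. The lowest difference came without γ-radiation replicate 3 (adjusted p = 0.183), and without mock replicate 2 it was 0.27 (adjusted p = 0.143).

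The other 7 genes had adjusted p between 0.292 and 0.871 in this comparison, with differences from -0.19 for ADH5 to 0.16 for ADH3. For 7 of the 8 genes, ADH6 included, the 95% interval stayed inside 1.5-fold. SFA1 differed by -0.03 (95% interval -0.32 to 0.25) and FDH1 by -0.14 (95% interval -0.40 to 0.13). With the mean of its probe sets the FDH1 difference was 0.02.

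After γ-radiation the 8 genes gave no call. Compared with mock irradiation 0 of 8 passed, against 0.902% of all genes (51 of 5656). The differences ran from -0.23 for ADH4 to 0.18 for ADH6, with adjusted p from 0.810 to 0.992. SFA1 had intensities of 95.1, 70.5 and 50.5 in γ-irradiated cells, against 90.0, 93.4 and 61.8 in mock-irradiated cells, a difference of -0.21 ± 0.22 (SE; adjusted p = 0.862). Irradiated cells thus held the highest and the lowest of the 6 values. ADH6 had 518, 459.7 and 307 in γ-irradiated cells, against 422, 321 and 369 in mock-irradiated cells, and ADH1 had 4520.3, 5096 and 5644 in γ-irradiated cells, against 4491, 4897 and 4568 in mock-irradiated cells. In both genes the γ-radiation group covered a wider range than its control. FDH1 was at 6.56, 7.90 and 6.73 in γ-irradiated cells, against 6.52, 6.91 and 8.07 in mock-irradiated cells, and differed by -0.02 (95% interval -0.45 to 0.41).

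The 3 enediynes were each set against the same 3 methanol arrays, which carried the solvent too. None of the 8 genes was called for calicheamicin, esperamicin A1, neocarzinostatin or their mean, and neither was any other gene (0% of 5656 in each of these 4 comparisons, with an unadjusted p under 0.05 for 220, 207, 464 and 324 genes). The differences of the 8 genes lay between -0.18 and 0.17 for calicheamicin, between -0.17 and 0.10 for esperamicin A1 and between -0.45 and 0.34 for neocarzinostatin. The doses differ and the controls are shared, so these values stand side by side and were not compared between the agents.

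SFA1 averaged 72.2 ± 2.87 in calicheamicin-treated cells, 70.6 ± 12.6 in esperamicin A1-treated cells and 73.7 ± 13.7 in neocarzinostatin-treated cells, against 78.3 ± 11.6 with methanol alone (intensity, SD, n = 3 each). The differences were -0.11, -0.15 and -0.09, each with an SE of 0.22. ADH6 averaged 515 ± 42.0, 509 ± 63.5 and 469.8 ± 48.1 in the same order of agents, against 476 ± 81.4 with methanol alone, and its differences were 0.13, 0.10 and -0.01, each with an SE of 0.19. ADH2, the ethanol-oxidizing isozyme, averaged 72.9 ± 12.6, 70.9 ± 17.7 and 82.6 ± 15.4, against 74.7 ± 6.09 with methanol alone.

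The largest differences belonged to neocarzinostatin, in ADH5 and FDH1. ADH5 had intensities of 112, 54.4 and 73.2 in neocarzinostatin-treated cells, against 152, 72.8 and 103 with methanol alone. The difference was -0.45 ± 0.40 (SE; 95% interval -1.28 to 0.39; adjusted p = 0.811), and within each replicate number the neocarzinostatin sample was the lower. FDH1 had 11.5, 6.89 and 6.03, against 5.27, 6.96 and 6.43 with methanol alone, a difference of 0.34 ± 0.20 (SE; 95% interval -0.09 to 0.77; adjusted p = 0.673). This difference was 0.06 (adjusted p = 0.936) without neocarzinostatin replicate 1.

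**Figure D2:**
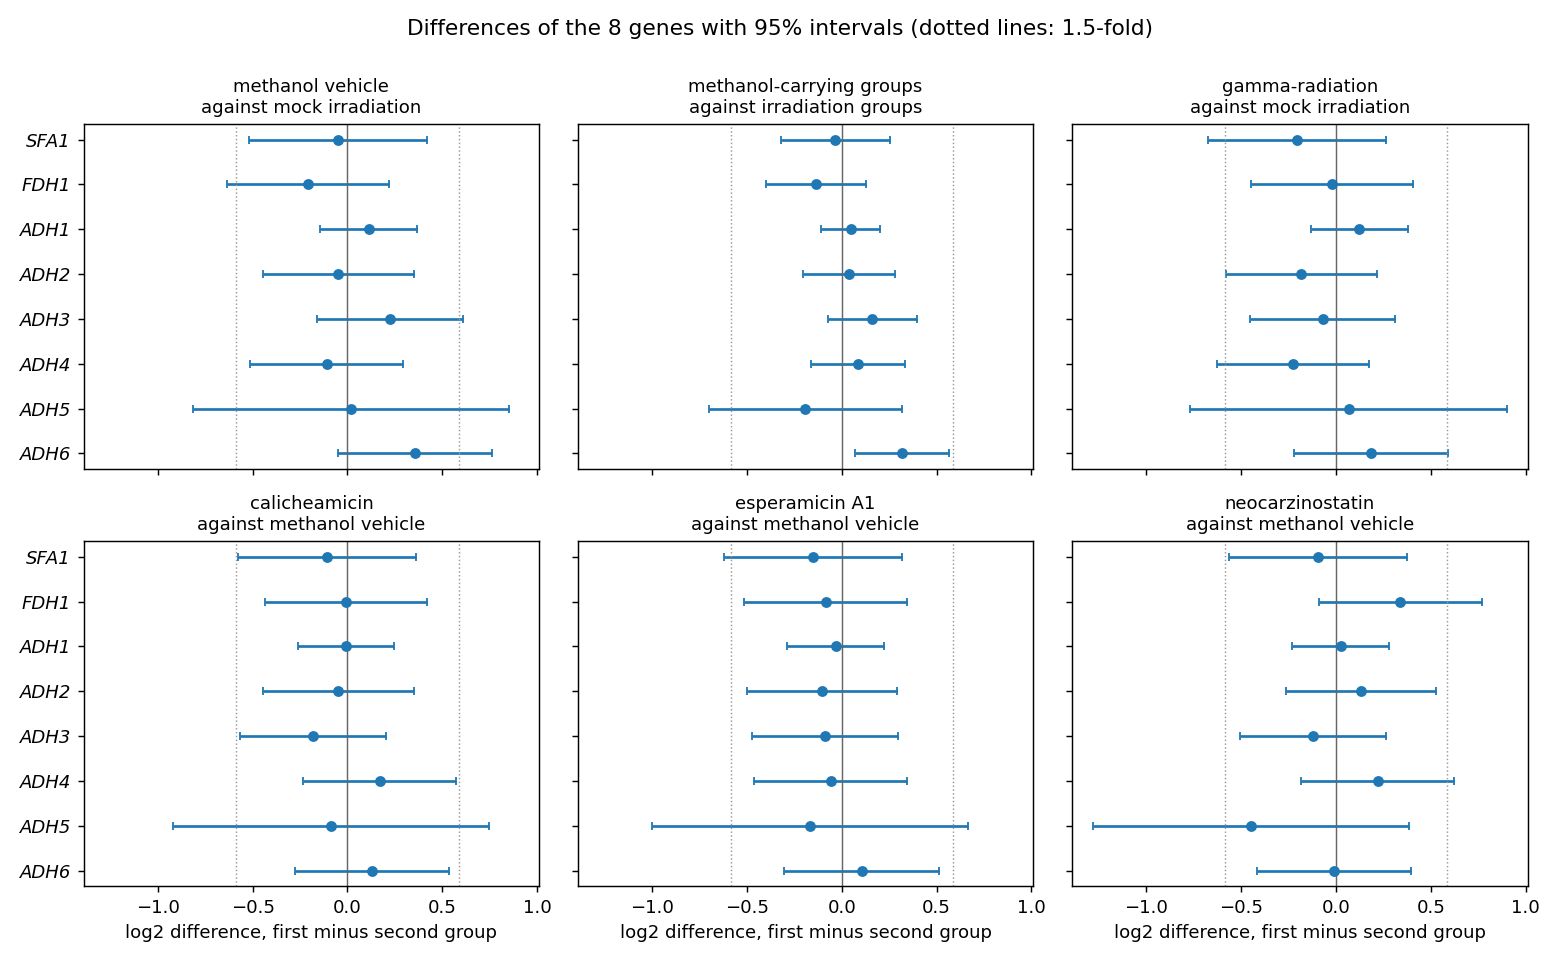
Log2 difference of the first minus the second group named above each panel (x axis, points) with its 95% interval (bars) for each of the 8 genes (y axis), from 1 limma model of 18 arrays. Dotted lines mark 1.5-fold. Of all intervals only that of ADH6 for the methanol-carrying groups, 0.07 to 0.57, lies clear of 0, and ADH5 has the widest interval in every panel. The model takes the arrays as independent, so the intervals for the methanol-carrying groups may be too narrow.

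The order of the 6 group means was unlike from gene to gene. For every one of the 8 genes each of the 5 steps between neighbouring group means was smaller than the pooled SD within groups. That SD is of single arrays, and a range cut into 5 steps makes small steps likely. The steps therefore do not show whether the groups differ. SFA1 was highest in mock irradiation (6.33 on the log2 scale) and lowest in γ-radiation (6.12), a range of 0.21 against an SD of 0.29. The range was also below the SD in ADH5 (0.50 against 0.56). It was above the SD in the other genes, as in ADH6 (0.48 against 0.24) and ADH1 (0.14 against 0.085). FDH1, ADH1, ADH2 and ADH4 were highest with neocarzinostatin. ADH3 was highest with methanol vehicle, ADH5 with γ-radiation and ADH6 with calicheamicin. Over the 18 arrays the pairwise correlations of their log2 values ran from -0.56 for ADH4 with ADH5 to 0.43 for SFA1 with ADH4, and SFA1 and FDH1, which stand in adjacent steps of formaldehyde removal, had r = -0.41. These arrays share groups, treatment families and a common normalization.

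ADH5 had the largest spread within groups of the 8 genes. Its SD within groups was 0.56 on the log2 scale, against a median of 0.24 over all genes, and 97.4% of genes had a smaller one. Within the methanol-carrying family, ADH5 intensities were 112 to 153 on the 4 arrays numbered replicate 1, 54.4 to 75.2 on those numbered 2 and 69.6 to 107 on those numbered 3. In the irradiation family they were 62.5 and 71.9 on replicate 1, 116 and 127 on replicate 2, and 138 and 150.3 on replicate 3. In the methanol-carrying family replicate 1 was the highest in every group, while replicates 2 and 3 overlapped and replicate 3 of esperamicin A1 was below its replicate 2. In the irradiation family replicate 1 was the lowest in both groups. Replicate number within family accounted for 92.9% of the variance of ADH5 within groups, a share above that of 99.1% of genes (median 47.0%). For the other 7 genes this share ran from 8.25% for FDH1 to 77.0% for ADH3. What the replicate numbers had in common, such as a culture day or an array batch, is not given in the sources used here, and its part in these values was not tested.

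The genes whose levels were most like ADH5 over the 18 arrays, looked up after this spread was seen, were RTC2 (Pearson r = 0.86), UIP4 (0.83), EGO4 (0.82), GLC3 (0.82) and GPH1 (0.81). GLC3 encodes the glycogen branching enzyme and GPH1 glycogen phosphorylase, both of reserve carbohydrate metabolism. GPH1 had intensities of 158, 74.7 and 89.2 in methanol replicates 1, 2 and 3, against 64.7, 224 and 282 in the mock replicates, with the high arrays on the same numbers as for ADH5. Within groups the highest correlations belonged to FMP16, YJR096W, EGO4, YOL153C and CYC7 (r from 0.95 to 0.93). Within groups the lowest correlations belonged to UPA2, AIM20, LIA1, PRP43, an RNA helicase of splicing and ribosome formation, and SQT1, which assists the assembly of the large ribosomal subunit (r from -0.93 to -0.92). Whether the genes of these lists share a function was not tested. PRP43 had 66.9, 87.0 and 73.0 in the methanol replicates and 97.3, 60.2 and 58.6 in the mock replicates.

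**Figure D3:**
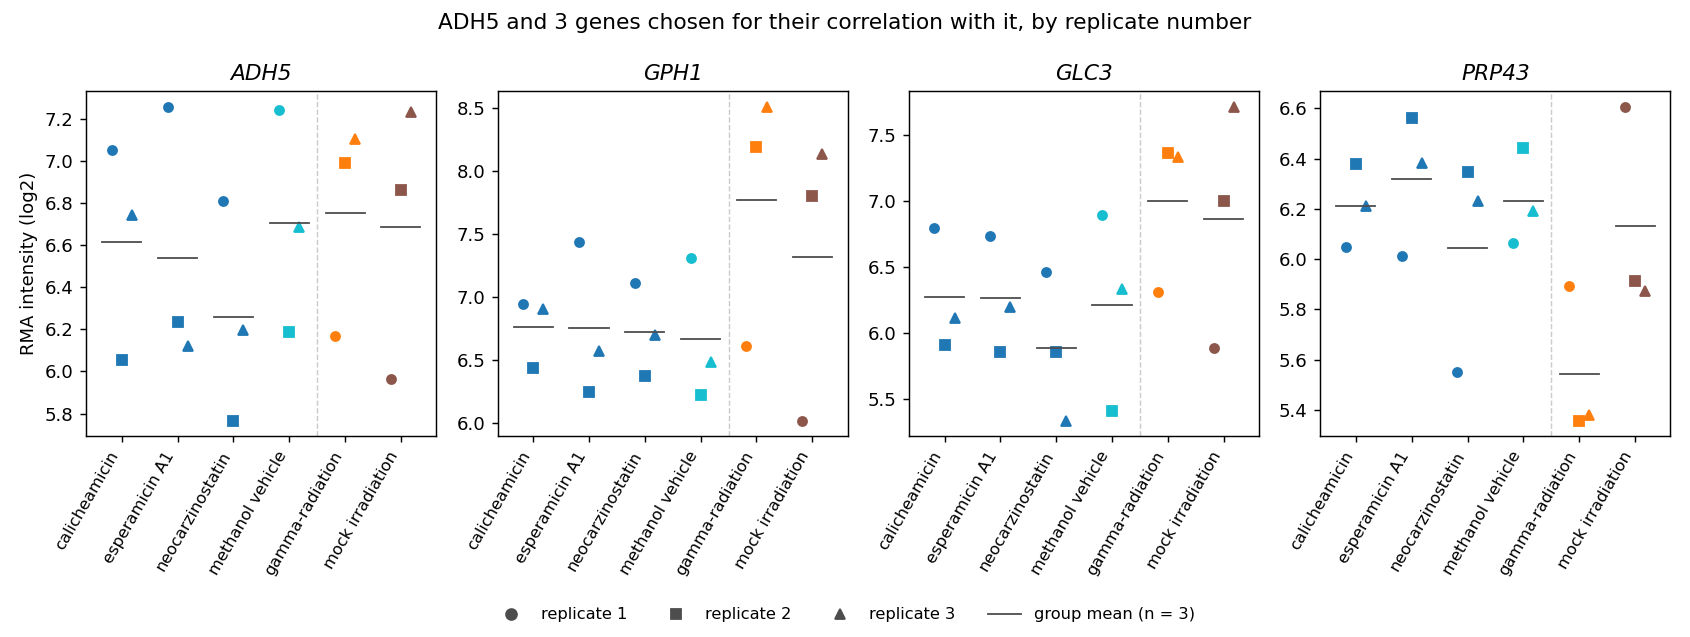
RMA intensity on the log2 scale (y axis) of ADH5, 2 of the genes most like it (GPH1 and GLC3) and 1 with an opposite pattern (PRP43), by group (x axis) and replicate number (marker shape), with group means as lines. In the 4 methanol-carrying groups ADH5 is highest on replicate 1, between 112 and 153 in linear intensity, and in both irradiation groups it is lowest there, at 62.5 and 71.9. The other genes were chosen for their correlation with ADH5.

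The lists of other genes around these enzymes were read against the calls over all genes for methanol vehicle against mock irradiation, 8.68% in all, of which 3.09% were higher and 5.59% lower, and no list was tested as such. Acetaldehyde metabolism gave 1 call among 10 measured genes, a share near that of 8.68% over all genes. The call was ALD5, for a mitochondrial aldehyde dehydrogenase, which fell by 0.81 (SE 0.20, adjusted p = 0.0259). ALD5 intensities were 25.9, 20.5 and 18.7 with methanol, against 35.1, 30.7 and 49.3 in mock-irradiated cells, with no overlap. The median of the list was -0.24, against -0.05 over all genes. PDC1, the main pyruvate decarboxylase, was 0.49 higher with an adjusted p of 0.0192 and stayed below 1.5-fold (named after its value was seen). None of the 4 genes that supply or follow Sfa1, GSH1 and GSH2 for glutathione synthesis, GLR1 for its reduction and YJL068C for S-formylglutathione hydrolase, was called, and the smallest p was that of GSH2 (-0.29, adjusted p = 0.377).

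Folate metabolism, which carries carbon units at the level of formate and formaldehyde, had 3 lower and 0 higher calls among 12 measured genes, against 5.59% lower over all genes (median -0.28, against -0.05 over all genes). They were MET13, for methylenetetrahydrofolate reductase, with an adjusted p of 0.0393, GCV3, a subunit of the glycine cleavage system, at -0.68, and SHM1, the mitochondrial serine hydroxymethyltransferase, at -0.62. SHM1 averaged 177 ± 25.4 with methanol, against 271 ± 13.8 in mock-irradiated cells (intensity, SD, n = 3 each). MET13 averaged 39.6 ± 15.9 with methanol, against 74.4 ± 7.93 in mock-irradiated cells, and the adjusted p was 0.0926 for GCV3 and 0.0362 for SHM1. Methanol replicate 1 was at 22.1 for MET13 and the other methanol replicates at 53.4 and 43.1. Without it the MET13 difference was -0.63 and no longer called (adjusted p = 0.142), as with the actin covariate (-0.62, adjusted p = 0.198).

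Other dehydrogenases and reductases for alcohols, polyols and carbonyl compounds had 1 higher and 3 lower calls among 9 measured genes of 10 (SOR1 had no probe set of its own), against 8.68% called over all genes, with a median of -0.18. ARA1, an NADP-dependent arabinose dehydrogenase that also reduces other carbonyl compounds, was higher by 0.84 (adjusted p = 0.0156), with intensities of 179, 231 and 191 with methanol, against 92.6, 157 and 93.7 in mock-irradiated cells. In γ-irradiated cells, for which no methanol is named, ARA1 was at 182 to 187. For the methanol-carrying groups against the irradiation groups it was not called, and this list had 0 higher calls there. XYL2, for xylitol dehydrogenase, fell by 0.92 (adjusted p = 0.00611), with 11.2, 9.59 and 8.86 in methanol-treated cells, against 15.7, 20.8 and 20.0 in mock-irradiated cells. The aldose reductase gene GRE3 fell by 0.73 (adjusted p = 0.0645), and BDH2, a relative of the butanediol dehydrogenase gene BDH1, fell by 0.74 (adjusted p = 0.0757). ADH7, which encodes the enzyme closest to Adh6, differed by -0.06 (SE 0.15, adjusted p = 0.851).

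Genes that the activators Adr1 and Cat8 switch on when glucose is gone, as they do ADH2, had 2 lower and 0 higher calls among 20 measured (median -0.31), a share near that of all genes (8.68% called, 5.59% lower). MDH2, the cytosolic malate dehydrogenase, fell by 1.22 (SE 0.20, adjusted p = 0.00228), with 71.3, 111 and 108 in methanol-treated cells and 207, 285 and 183 in mock-irradiated cells. GUT2, the mitochondrial glycerol-3-phosphate dehydrogenase, fell by 0.74 (adjusted p = 0.0677). Its intensities of 7.75 to 14.1 with methanol overlapped those of 13.1 to 24.8 in mock-irradiated cells, and without methanol replicate 3 the difference was -0.47 and not called (adjusted p = 0.204). Among 16 regulators, ADR1 itself was the only call, against 8.68% of all genes, lower by 0.62 on the log2 scale with an adjusted p of 0.0497. ADR1 was dim, at 7.93 to 9.95 in methanol-treated cells and 13.4 to 14.8 in mock-irradiated cells, while ADH2 differed by -0.05.

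Genes of the zinc regulator Zap1, to which ADH4 is tied, had 2 higher and 0 lower calls among 14 measured, against 3.09% higher over all genes (median 0.14). ZRT1, the high-affinity zinc transporter, rose by 1.01 (SE 0.15, adjusted p = 0.00132), with 369.8, 435 and 314 with methanol, against 174, 176 and 203 in mock-irradiated cells. With the mean of its probe sets in place of the brightest, the ZRT1 difference was 0.67 and not called (adjusted p = 0.134 in limma). ZRT2, the low-affinity transporter, rose by 0.87 (adjusted p = 0.0278). ADH4 differed by -0.11, with its interval of -0.51 to 0.29 inside 1.5-fold. When the 4 methanol-carrying groups were compared with the irradiation groups, where 9.99% of all genes were called, 4.37% higher and 5.62% lower, 4 genes of this list were higher, ZRT1 (1.15), ZRG17 (0.68), ZRT2 (0.67) and IZH1 (0.59), and IZH4 was lower (-0.71). In that comparison ALD4 and ALD5 of the acetaldehyde list, SHM1, GCV1 and GCV3 of the folate list, BDH1, BDH2 and XYL2 of the other dehydrogenases, and MDH2, ADY2 and again ALD4 of the glucose-repressed genes were lower, as was AGA2 among the a-cell markers, and no gene of the glutathione or regulator lists was called.

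The 13 list genes called for methanol vehicle were followed through the same alternatives, chosen after their values were seen, and 0 of them changed direction. MDH2, XYL2, ZRT1 and ARA1, the last of which was not called for the methanol-carrying groups, were called whichever single array was left out. The other 9 lost the call without at least 1 array. These arrays were mock replicate 3 for ALD5 (adjusted p = 0.103), mock replicate 2 for ZRT2 (0.138), methanol replicate 1 or mock replicate 1 for SHM1 (differences of -0.52 and -0.58), and methanol replicate 1 or mock replicate 2 for MET13 (adjusted p = 0.142 and 0.116). They were methanol replicate 3 or mock replicates 2 and 3 for GUT2 (adjusted p from 0.190 to 0.222) and methanol replicate 1 or mock replicates 2 and 3 for ADR1 (0.122 to 0.142). For BDH2 and GRE3 they were methanol replicates 1 and 2 and mock replicates 2 and 3 (0.188 to 0.237 for BDH2 and 0.123 to 0.213 for GRE3). GCV3 lost its call under 18 of 30 alternatives, 12 of them left-out arrays, with an adjusted p of up to 0.247 when an array was left out. Fitting the compared groups alone left 3 of the 13 called (XYL2, MDH2 and ZRT1), and the local pooled error test left 0. As written here, that test called fewer genes than the paper reports for γ-radiation and each enediyne. No conclusion is therefore drawn from this 0. SHM1, GCV3, BDH2 and GRE3 lost the call with cyclic loess, and ZRT1 lost it with the mean of its probe sets. With the actin covariate 5 of the 13 lost the call (SHM1, MET13, BDH2, GRE3 and ADR1), and the same 5 lost it without methanol replicate 1, the array with the lowest actin ratio. This array lies farthest from the others on the covariate, so these checks are not independent of each other. In γ-radiation against mock irradiation 0 genes of these lists were called, against 0.902% of all genes. In the comparisons of each enediyne and their mean with methanol vehicle 0 of 5656 genes were called, so that no list gene was either.

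**Figure D4:**
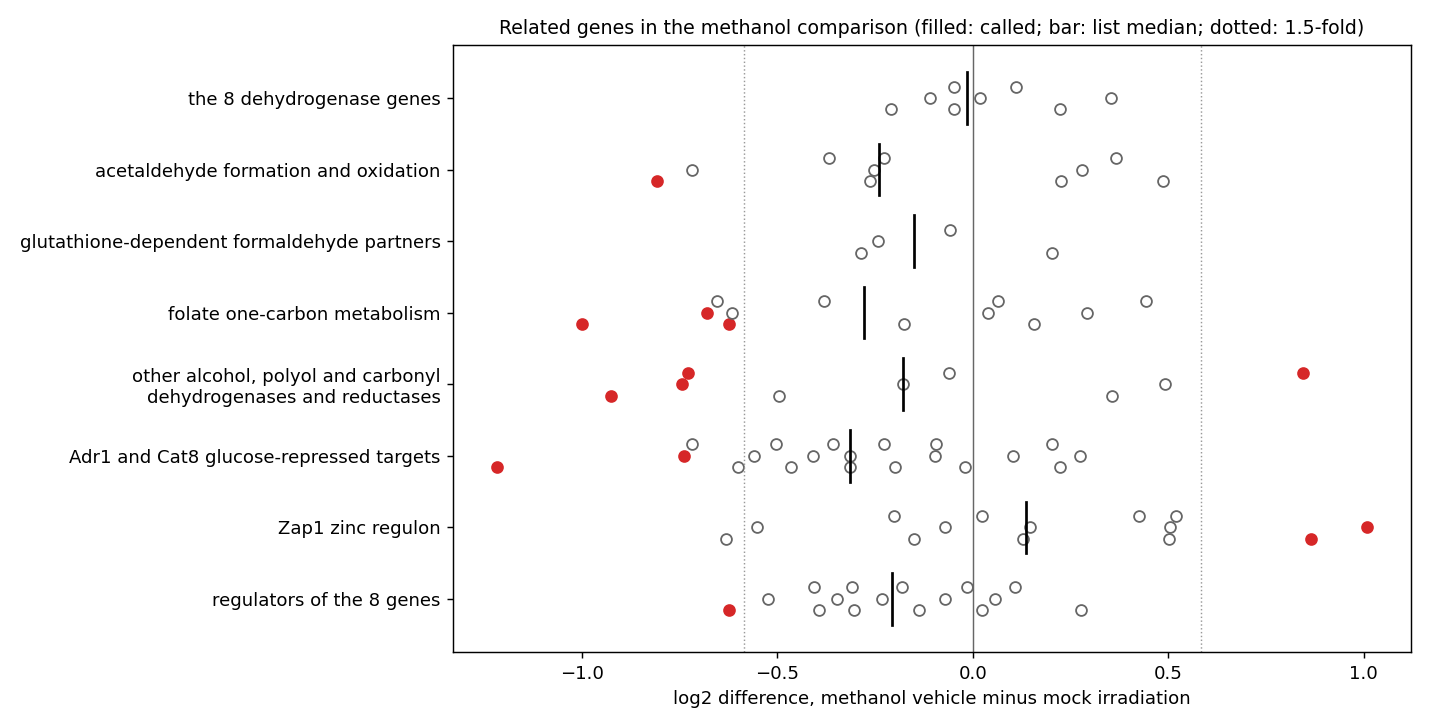
Log2 difference of methanol vehicle minus mock irradiation (x axis) for the 8 dehydrogenase genes and the measured genes of 7 related lists (y axis), each circle 1 gene, filled where called, with a bar at each list's median and dotted lines at 1.5-fold. All 8 dehydrogenase genes lie between -0.21 and 0.35, and the called genes reach from -1.22 (MDH2) to 1.01 (ZRT1).

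The genes most like SFA1 over the 18 arrays were MAP1 (Pearson r = 0.77), RRP42 (0.76), PRS4 (0.75), AST1 (0.74) and JIP5 (0.74), and with the 2 most distant arrays left out these fell to between 0.56 and 0.67. Those most like FDH1 were IRC15 (0.84), DBP1 (0.77), YPL257W (0.76), YAL064W-B (0.75) and ACH1 (0.74). Without the 2 most distant arrays, 1 of which was the neocarzinostatin sample at 11.5, r was 0.51 for IRC15, 0.88 for DBP1 and 0.09 for YAL064W-B. They are the highest over all other genes on arrays that share groups and a normalization, and are given as a description.

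Genes of mating type were read as levels of their own probe sets, which neither compare abundance between genes nor identify the strain. Of 6 markers of a cells, MFA1 and MFA2, for the a-factor precursors, were at 695 to 1817 and 1165 to 1819, AGA2, STE2 and BAR1 were between 34.3 and 132 (AGA2 the highest), and STE6 was at 5.59 to 17.9. Of 4 markers of α cells, MF(ALPHA)1, MF(ALPHA)2 and STE3 were between 7.67 and 22.1, and SAG1 was at 37.1 to 61.7. The summed level was 2204 to 3681 for the a-cell list, mostly from MFA1 and MFA2, and 86.7 to 113 for the α-cell list. These sums add unlike probe sets and do not compare the abundance of the lists, and STE6 lay below SAG1. Of these markers 0 of 6 and 0 of 4 were called between methanol vehicle and mock irradiation, against 8.68% of all genes. With so few genes, no call is near that share. The medians were -0.33 and -0.23, against -0.05 over all genes. The smallest p belonged to STE6 (-0.67, adjusted p = 0.138 in limma) among a-cell markers and to SAG1 (0.44, adjusted p = 0.0863) among α-cell markers. The log2 ratio of 5′ to 3′ actin signal lay between -3.59 and -0.77 in the methanol group, between -2.34 and -1.53 after esperamicin A1, between -1.34 and -0.74 after calicheamicin and between -0.95 and -0.83 after neocarzinostatin, against -0.76 to -0.69 with γ-radiation and -0.80 to -0.69 in mock-irradiated cells. The part of RNA quality in the differences between families was not tested beyond its use as a covariate, under which 0 of the 8 dehydrogenase genes were called. The count of all genes called with this covariate for methanol vehicle against mock irradiation is given in the last section.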

How the data were processed

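The authors deposited intensities from the RMA algorithm, which corrects background, applies quantile normalization and summarizes each probe set, and left them linear. Before any test the log2 of each value was formed, and arrays were not scaled again. Expression had been measured on Affymetrix YG-S98 arrays, 18 in 6 groups. Of 9335 probe sets, 6504 matched 1 gene symbol in the platform annotation, 328 several and 2443 none, and 60 were controls. The probe set with the highest mean stood for a gene, which gave 5656 genes. Locus tags and synonyms came from the RefSeq gene table (assembly R64). Columns that matched no sample numbered 0. No Absent/Present filter was applied. Sequences were not analysed here.

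Comparisons were contrasts in 1 limma 3.58.1 model (R 4.3.3) of all 18 arrays, with 12 residual degrees of freedom, the same spread for all groups and moderated standard errors. A call required 1.5-fold or more and, after Benjamini-Hochberg adjustment over all genes, a p of at most 0.10. The code was tested on simulated data. Precision is limited by the number of arrays.

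The 8 genes, the lists and the tests were chosen with earlier results of these data known. Named are all 8 genes, the called members of each list for methanol vehicle against mock irradiation (at most 4 by smallest adjusted p, or otherwise the 1 with the smallest p) and the 5 genes most correlated with SFA1, FDH1 and any of the 8 that was called. Genes like ADH5 were added after its values were seen. Deviations from the group means were correlated between arrays of the same number. Every pair was above 0.1 between γ-irradiated and mock samples (0.65, 0.50 and 0.67) and, set against the methanol samples, for neocarzinostatin (0.37, 0.18 and 0.12) and calicheamicin (0.17, 0.13 and 0.40). Esperamicin A1 did not reach this in each pair (0.19, 0.35 and -0.09), nor did the methanol samples against the mock samples (-0.16, -0.10 and -0.15). This pairing comes from the values, not from the labels.

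The alternatives were cyclic loess, median centring, leaving out the dimmest 25% of genes, an intensity trend, a replicate block over all arrays or within each family, an adjusted p of 0.05, no fold threshold, a fit of only the groups compared, actin as a covariate, the study's test by local pooled error (written here after its description), all probe sets, the mean of a gene's probe sets and leaving out each array in turn.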

Additional observations from a re-analysis of the deposited data

How the results depend on the processing

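Of 1705 values of the 8 genes under alternatives, 1 was called: ADH6 in the methanol-carrying groups with no fold threshold (adjusted p = 0.0526, and 2071 genes called in place of 565). In 94 values the sign changed, 64 of them on leaving out an array, and 0 of these values were called. Many of the 1705 values could not change sign. Leaving out an array outside the compared groups, a replicate block, an intensity trend or another threshold left the difference as it was. The stricter adjusted p could not add a call either. These counts therefore do not measure how stable the signs and calls are. FDH1 had no value without the dimmest genes.

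The number of genes called for methanol vehicle against mock irradiation was 491, and 89 with the compared groups alone, 49 with the local pooled error test, 311 with the actin covariate and 291 to 684 on leaving out each array, the lowest without mock replicate 2. The cause was not tested. For the methanol-carrying groups, leaving out each array gave 527 to 630. For γ-radiation it was 51, and 17 alone, 14 with the local pooled error test and 23 to 60 on leaving out each array, the lowest without γ-radiation replicate 2. The count was 0 for each enediyne and their mean. The local pooled error test gave 1 gene after calicheamicin, 4 after esperamicin A1, 3 after neocarzinostatin and 2 in the mean, the actin covariate 1 for esperamicin A1, and leaving out arrays 0 to 1, 0 to 7, 0 to 2 and 0 to 2 in the same order. The 7 for esperamicin A1 came without methanol replicate 1. For γ-radiation and each enediyne, the local pooled error test as written here called fewer genes than the paper reports with its own. Its counts therefore do not stand for those of the study's test.

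With a replicate block inside each family, 129 genes were called for γ-radiation and 3 for neocarzinostatin, and 0 of the 8 genes in either. For ADH5 the paired fit gave -0.45 (adjusted p = 0.298) for neocarzinostatin. A block over all arrays gave 506 genes for methanol vehicle against mock irradiation, whose numbers do not pair, and 0 of the 8. The blocks changed no other call of the 8 genes.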
